A study of Mus musculus with 8 samples.

Results

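Single-nucleus RNA-seq of the mouse kidney was used to follow 8 genes of renal glucose handling: the sodium-coupled glucose transporters Slc5a1 (SGLT1) and Slc5a2 (SGLT2), the facilitative transporters Slc2a1 (GLUT1) and Slc2a2 (GLUT2), and the gluconeogenic enzymes Pcx, Pck1, Fbp1 and G6pc. The genes were taken by symbol, and all 8 were found among the 32285 features of the count tables, of which 21286 are mRNAs. Their levels were read in 19 cell classes that were named from marker genes, with the 8 genes kept out of both the clustering and the marker lists, so that a gene's level had no part in placing a nucleus.

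The 8 libraries came from 8 male mice on a C57BL/6J background, 2 for each of 4 groups. Ctrl mice carried floxed alleles of Bmal1 (Bmal1lox/lox), and cKOt mice, born in the same litters, also had the transgenes Pax8-rtTA and LC-1 (Bmal1lox/lox/Pax8-rtTA/LC-1). Bmal1, listed as Arntl in the tables, encodes an activator of the circadian clock. In this system doxycycline induces Cre in renal tubule cells, so that stromal, vascular and immune cells are not targeted. Both genotypes drank water with 2 mg/ml doxycycline, sweetened with 20 mg/ml sucrose, for 2 weeks from 8 weeks of age. They lived under a cycle of 12 h light and 12 h dark and were killed at 14 weeks of age. Kidneys were collected at zeitgeber time ZT4, in the light and resting phase, or at ZT16, in the dark and active phase. Nuclei came from frozen central cross-sections that held cortex and medulla.

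As background, nearly all filtered glucose is taken back in the proximal tubule. SGLT2, a high-capacity carrier of the apical membrane, works in the early convoluted part, and SGLT1, a high-affinity carrier, works further downstream in the straight part. Glucose then leaves the cell across the basolateral membrane, mainly through GLUT2 in the early tubule and through GLUT1 elsewhere. The proximal tubule also makes glucose from lactate, glutamine and glycerol and releases it into the blood, most of all in fasting and acidosis. Pyruvate carboxylase (Pcx) turns pyruvate into oxaloacetate, phosphoenolpyruvate carboxykinase (Pck1) makes phosphoenolpyruvate from it, fructose-1,6-bisphosphatase (Fbp1) removes a phosphate further along, and the glucose-6-phosphatase catalytic subunit (G6pc) releases free glucose.

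In the RefSeq annotation of GRCm38.p6 the transporter genes lie at chr5:33104219-33162699 (Slc5a1, ENSMUSG00000011034), chr7:128265683-128272430 (Slc5a2, ENSMUSG00000030781), chr4:119108745-119137330 (Slc2a1, ENSMUSG00000028645) and chr3:28697903-28728361 (Slc2a2, ENSMUSG00000027690). The enzyme genes lie at chr2:173153073-173159274 (Pck1, ENSMUSG00000027513), chr11:101367716-101377903 (G6pc, ENSMUSG00000078650), chr13:62864753-62888298 (Fbp1, ENSMUSG00000069805) and chr19:4510472-4621752 (Pcx, ENSMUSG00000024892). In GENCODE vM39 an annotated gene overlaps Slc5a2 (Rusf1), Slc2a2 (1700112D23Rik) and Pcx (Lrfn4 and Rce1) on the opposite strand, and Slc5a1 and Slc2a1 have overlapping genes on both strands. The sources used here do not give the strand and intron settings of the counting, so reads of these genes and of their opposite-strand partners may not be separated. Pck1, G6pc and Fbp1 have no overlapping annotated gene.

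Promoter windows from 250 bases before to 50 after the RefSeq start (GRCm38.p6) were held for 7 of the 8 genes, all except Slc5a2, in 8 windows, as Pcx has a second start. Because the mice differ in a clock activator and in time of day, each window was searched on both strands for the E-box CACGTG, to which clock activators bind, the E-box-like CACGTT, the D-box-like TTANGTAA, bound by output factors of the clock, and the CRE-like TNACGTCA, bound by cAMP-responsive factors. These letters were held by 7.15%, 4.68%, 2.32% and 2.93% of 32851 promoters of the same length. A match was found in 4 windows, which are printed 5′ to 3′ on the strand of the gene with the match in capitals: an E-box that begins 143 bases before the start of Slc5a1 (chr5:33103969-33104268), a CRE-like sequence 93 bases before that of Pck1 (chr2:173152823-173153122), a D-box-like sequence 162 bases before that of G6pc (chr11:101367466-101367765) and an E-box 248 bases before the first start of Pcx (chr19:4510222-4510521). The E-box and E-box-like letters do not overlap at any of these matches. The windows of Slc2a1, Slc2a2 and Fbp1 and the second window of Pcx held none of the 4 motifs. A match describes the letters and not binding.
Slc5a1: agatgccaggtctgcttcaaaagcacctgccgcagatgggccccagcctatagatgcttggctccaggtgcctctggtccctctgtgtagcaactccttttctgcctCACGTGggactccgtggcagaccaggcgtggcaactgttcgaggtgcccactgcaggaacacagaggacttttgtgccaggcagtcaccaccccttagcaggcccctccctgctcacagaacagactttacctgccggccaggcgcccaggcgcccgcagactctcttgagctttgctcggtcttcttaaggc
Pck1: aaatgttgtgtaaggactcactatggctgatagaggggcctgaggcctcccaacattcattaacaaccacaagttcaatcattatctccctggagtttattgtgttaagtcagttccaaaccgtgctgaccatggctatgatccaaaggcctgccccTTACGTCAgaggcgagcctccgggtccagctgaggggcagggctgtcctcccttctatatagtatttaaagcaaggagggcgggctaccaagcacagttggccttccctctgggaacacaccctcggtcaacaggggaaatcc
G6pc: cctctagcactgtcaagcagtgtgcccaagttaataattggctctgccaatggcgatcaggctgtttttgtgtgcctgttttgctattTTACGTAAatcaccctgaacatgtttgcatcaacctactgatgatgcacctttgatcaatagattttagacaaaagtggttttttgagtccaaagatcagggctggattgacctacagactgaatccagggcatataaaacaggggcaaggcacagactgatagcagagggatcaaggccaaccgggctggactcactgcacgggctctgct
Pcx: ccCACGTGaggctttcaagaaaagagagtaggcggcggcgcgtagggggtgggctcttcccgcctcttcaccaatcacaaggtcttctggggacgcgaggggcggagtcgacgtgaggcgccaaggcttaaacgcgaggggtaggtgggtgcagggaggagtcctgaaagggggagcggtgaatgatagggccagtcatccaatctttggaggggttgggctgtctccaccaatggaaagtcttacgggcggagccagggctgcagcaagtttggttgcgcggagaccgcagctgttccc

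The tables held 82784 barcodes, of which 81391 nuclei were kept, with between 36548873 and 54500820 UMIs per library. Clustering gave 39 named clusters in 19 classes with 76116 nuclei, and 5275 nuclei (6.48%) stayed unnamed. Any 2 libraries shared between 18 and 42 barcodes, at most 0.422% of the smaller one. The proximal convoluted tubule (PCT) held 17757 nuclei in 9 clusters and the proximal straight tubule (PST) 8279 in 4, and different clusters held most of these nuclei in different groups: Ctrl nuclei of PST lay mainly in clusters 14 and 20, and cKOt nuclei mainly in clusters 12 and 16. In PCT, cluster 5 held 58.0% of the Ctrl nuclei at ZT4, cluster 19 held 29.3% of those at ZT16, cluster 4 held 24.1% of the cKOt nuclei at ZT4 and cluster 10 held 41.2% of those at ZT16. Values within a class are compared between groups, not cluster sizes.

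The boundary between PCT and PST differed between libraries. PST made up 4.90%, 4.94% and 5.04% of the nuclei in Ctrl ZT4 replicate 2, cKOt ZT4 replicate 2 and Ctrl ZT16 replicate 1, against between 10.9% and 14.6% in the other 5 libraries. The same 3 libraries had the lowest Slc5a2 in PCT (413, 381 and 444 CPM, against between 540 and 749) and the highest Slc5a1 in PCT (18.2, 23.2 and 23.6, against between 3.57 and 11.5). Levels are therefore given in PCT and also in PCT and PST summed together, the proximal tubule as a whole, where the place of the boundary does not enter. The share of early and late tubule in a section can still differ between libraries and enter these sums, and this was not tested. All levels are CPM, the UMIs of the gene per 1000000 mRNA UMIs of that class in that library, and they are compared between classes and groups, not between genes. With 2 mice per group the error is the spread between mice, and the p-values of the fits rest on 8 libraries. The targeted gene Arntl was counted at 39.2 and 33.1 CPM in all nuclei of Ctrl mice at ZT4 and at 160 and 157 at ZT16. It stood at 288 and 203 in cKOt mice at ZT4 and at 294 and 258 at ZT16. The counts were higher in cKOt at ZT4 (log2 fold change 2.80, edgeR quasi-likelihood test, adjusted p = 0.000495), and since 3′ counts are not limited to the deleted part of the gene, they do not check the deletion.

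SGLT1 and SGLT2 marked different stretches of the nephron. Slc5a2 stood at 569 ± 146 CPM in PCT (SD over 8 libraries), with libraries from 381 to 749, and at between 15.5 and 40.4 in the other 18 classes, PST included (27.8 ± 7.79). The libraries of PCT did not overlap those of any other class, and PCT held 83.3% of all Slc5a2 UMIs. After every nucleus was thinned to 1000 UMIs, which left out 1141 shallower nuclei (367 in Ctrl ZT4, 258 in Ctrl ZT16, 328 in cKOt ZT4 and 188 in cKOt ZT16), 38.6% of PCT nuclei carried a Slc5a2 UMI, against between 1.59% and 3.62% in the other classes.

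Slc5a1 was highest in the macula densa (MD), the small plaque of tubule cells that senses the salt content of the urine, and not in the proximal tubule. It stood at 405 ± 112 CPM in MD, at 131 ± 25.5 in the thick ascending limb (TAL), at 39.5 ± 6.32 in PST and at 12.5 ± 8.18 in PCT. The ranges of the 8 libraries did not overlap between MD and TAL, TAL and PST, or PST and PCT, whereas PCT overlapped the remaining classes, which lay at or below 10.1. MD was a class of 180 nuclei, 10 to 33 per library, so that it held 2.70% of the Slc5a1 UMIs, while TAL held 49.7%, PST 21.6% and PCT 14.4%. A thinned Slc5a1 UMI was found in 25.6% of MD nuclei, 9.07% of TAL nuclei, 2.96% of PST nuclei and 0.427% of vascular (Vasc) nuclei.

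The facilitative transporters divided the tubule in a similar way. Slc2a2 stood at 297 ± 56.7 CPM in PCT, with libraries from 202 to 394, and this range lay above that of every other class. PST followed at 62.0 ± 25.3, with libraries from 26.7 to 113 that overlapped with those of myeloid nuclei (Myel) and of most other classes, and the means of the other 17 classes lay between 10.96 and 27.6. PCT held 76.7% of the Slc2a2 UMIs. When the clustering used 50 principal components, which moved the boundary between PCT and PST, Slc2a2 in PST stood at 26.9. Slc2a1 was instead low in the proximal tubule, with no steady course along the rest of the nephron. The thin ascending limb (17.1), MD (20.6) and the medullary collecting duct (20.1) were low as well. Its lowest levels of all 19 classes were those of PCT (7.01 ± 1.26) and PST (7.86 ± 1.84), and these 2 overlapped. The highest were those of the thin descending limb (thinDL, 137 ± 39.7), the principal cells of the cortical collecting duct (CCD, 125 ± 39.1), type A intercalated cells (aIC, 90.5 ± 32.9) and TAL (73.4 ± 19.7), followed by type B intercalated cells (bIC, 63.4 ± 32.5) and the connecting tubule (CNT, 55.7 ± 9.02). Neighbours in this order overlapped, so that no order between neighbours can be read. The libraries of thinDL (from 94.5) and CCD (from 79.8) lay above all those of CNT (up to 69.3). By number of UMIs, TAL held the largest part of Slc2a1, 31.5%, and PCT held 7.29%.

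The gluconeogenic enzymes shared the proximal tubule but not the same stretch of it. Pck1 did not differ between PCT (710 ± 176) and PST (670 ± 285) beyond the spread of the libraries, and both lay above all other classes (65.6 to 178). Fbp1 was likewise high in both, at 521 ± 142 in PCT and 394 ± 70.5 in PST, with overlapping libraries, and lay between 32.2 and 83.9 elsewhere. G6pc was the more convoluted of the 3, at 556 ± 181 in PCT and 179 ± 88.0 in PST without overlap, and between 27.1 and 64.4 on average elsewhere. Its PST libraries, from 50.1 to 303, overlapped with those of Myel and other classes, and its PST level was 69.4 with 50 principal components. PCT and PST together held 80.9% of the Pck1 UMIs, 84.2% of the Fbp1 UMIs and 86.4% of the G6pc UMIs.

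Pcx stood apart from the other 3 enzymes. Its highest level was that of the medullary collecting duct (MCD), at 543 ± 176 CPM with libraries from 273 to 831. The urothelium (UT) followed at 318 ± 101, PCT at 291 ± 66.2, PST at 202 ± 45.5, the thin ascending limb (thinAL) at 201 ± 47.1 and aIC at 112 ± 29.3, and each overlapped with the next. The remaining classes lay between 29.4 and 77.6. A thinned Pcx UMI was found in 31.1% of MCD nuclei, 20.4% of PCT nuclei and 2.22% of MD nuclei. PCT, which has many more nuclei, still held 48.6% of the Pcx UMIs and MCD 8.42%. In MCD neither Pck1 (131 ± 41.9), Fbp1 (63.5 ± 18.6) nor G6pc (40.1 ± 12.97) stood above the other classes outside the proximal tubule.

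**Figure D1:**
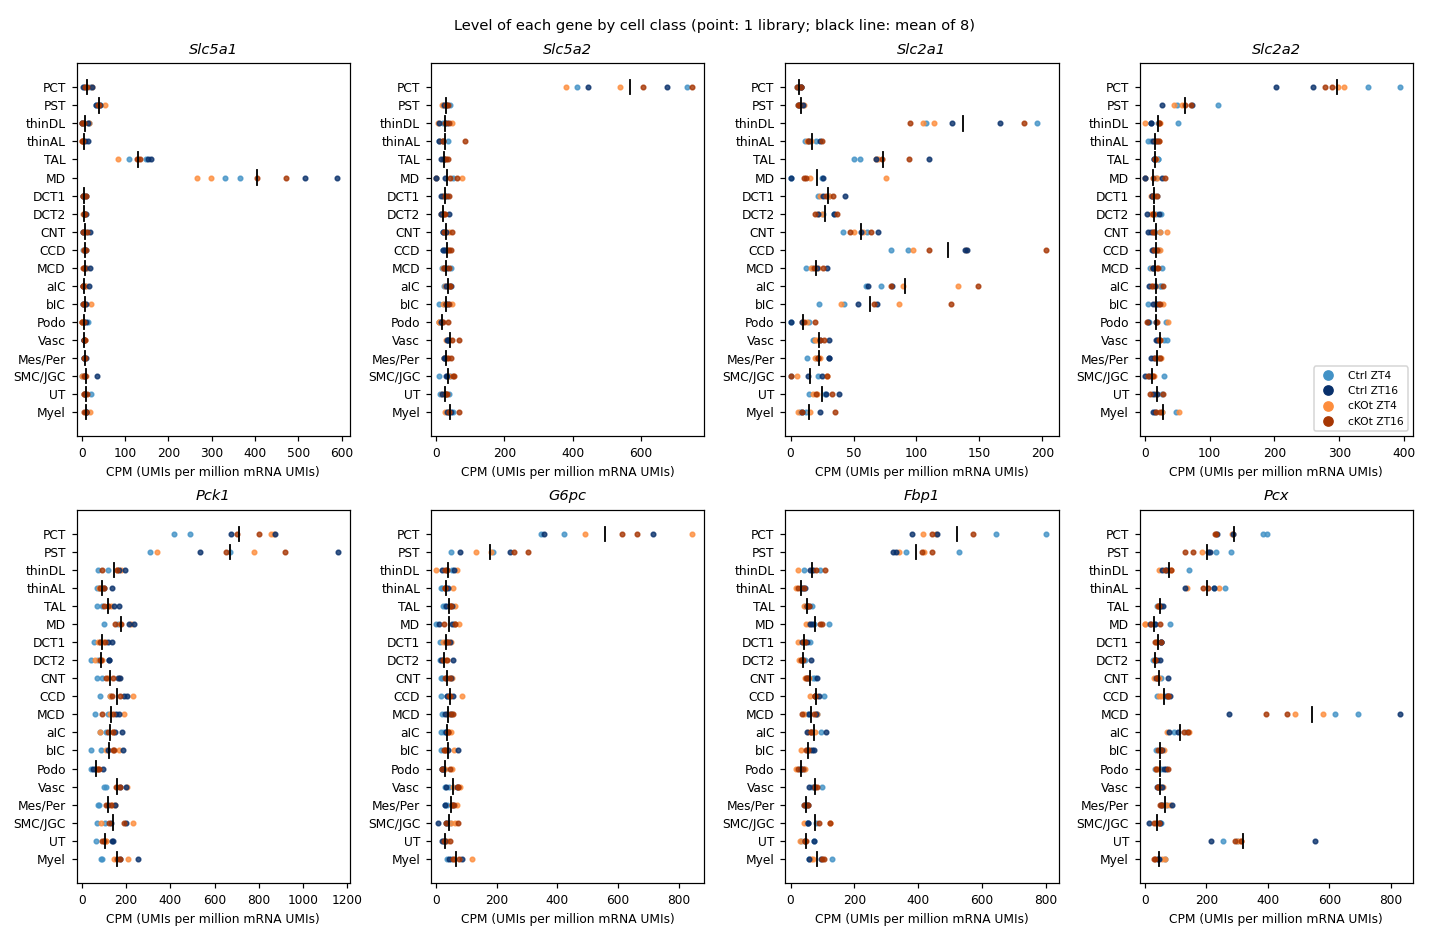
Level of each gene in CPM (horizontal axis, linear, its own scale in each panel) in the 19 classes, with 1 point per library, coloured by group, and a black line at the mean of the 8 libraries. Slc5a2, Slc2a2 and G6pc peak in PCT, Pck1 and Fbp1 in PCT and PST, Slc5a1 in MD (405) and TAL (131), Slc2a1 in thinDL and CCD with its lowest means in PCT and PST, and Pcx in MCD (543).

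Free RNA in the nuclear suspension can give UMIs to nuclei that do not express a gene, and 10 PCT marker genes gave a measure of it. In PST these markers stood at between 4.03% and 237% of their PCT level, so not all of them are highest in PCT. A marker that is higher in PST can raise the upper limit of the marker range. In the 17 classes outside the proximal tubule, the median marker stood at between 4.23% and 13.3% of its PCT level, and the highest marker of each class at between 10.3% and 32.0%. Slc5a2 (2.73% to 7.11%), Slc2a2 (3.69% to 9.31%), G6pc (4.88% to 11.6%) and Fbp1 (6.18% to 16.1%) lay within the range of the markers in 17 of 17 classes, so no expression is read from their counts there. Slc5a2 lay at or below the median marker in 17 of the 17, Slc2a2 in 12, G6pc in 3 and Fbp1 in 0. Pck1, at 9.24% to 25.1% of its PCT level, also lay at or below the median marker in 0 of these classes, and it lay above the highest marker in MD alone. PST can also give free RNA, which a scale to PCT leaves out. In PST, Pck1 stood at 94.4% and Fbp1 at 75.6% of their PCT level, against 19.2% for the median marker. G6pc stood there at 32.1%, Slc2a2 at 20.9% and Slc5a2 at 4.88%. A level above the median marker is therefore not read as expression, and the part of free RNA from PST was not tested. Slc5a1 and Slc2a1 lay above every marker in all 17 classes, as their PCT levels are low, and Pcx did so in thinAL, MCD, aIC, podocytes (Podo), mesangial cells and pericytes (Mes/Per) and UT.

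Along the proximal tubule Slc5a2 fell and Slc5a1 rose. The 26036 proximal nuclei were ranked within each library from the S1 end to the S3 end by markers other than the 8 genes and cut into 5 equal ranges, so that every library has the same number of nuclei in each. Of these nuclei, 7856 (30.2%) lay within 0.1 SD of a limit, so the ranges are stretches of a gradient and not cell types. Since the ranking is made within a library, a range need not hold the same stretch of tubule in each library. Among the markers of the S1 end, Slc16a9 went the other way, at 190, 141, 260, 347 and 470 CPM from the first range to the last. Slc5a2 stood at 916 ± 129, 786 ± 110, 314 ± 117, 30.03 ± 11.9 and 16.4 ± 3.76 CPM from the first range to the last, and the last 2 ranges lay at the level of the classes outside the proximal tubule. Slc5a1 stood at 2.70 ± 1.05, 2.48 ± 1.27, 17.1 ± 5.83, 37.2 ± 8.13 and 41.7 ± 6.14. Both differences held in 8 of 8 libraries. Slc2a2 went with Slc5a2, from 406 ± 103 in the first range to 50.9 ± 21.6 in the last (7.96-fold lower, 8 of 8 libraries), whereas Slc2a1 stayed between 6.04 and 7.94 with no common direction (first range above last in 3 of 8 libraries).

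The enzymes declined less steeply. G6pc stood at 656 ± 257, 589 ± 224, 544 ± 196, 396 ± 131 and 146 ± 44.9 and was 4.50-fold higher in the first range than in the last (8 of 8 libraries). Fbp1 went from 584 ± 206 to 375 ± 54.2 (1.56-fold, 7 of 8 libraries, not in cKOt ZT4 replicate 1), and Pcx from 296 ± 55.3 to 196 ± 62.8 (1.51-fold, 8 of 8 libraries). Pck1 had a different shape: it was highest in the middle of the axis, at 522 ± 142, 592 ± 172, 922 ± 279, 953 ± 234 and 595 ± 157, and the first range was above the last in 2 of 8 libraries. The markers that made the ranking share the libraries and the depth with these genes, and the values are a description without a test.

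**Figure D2:**
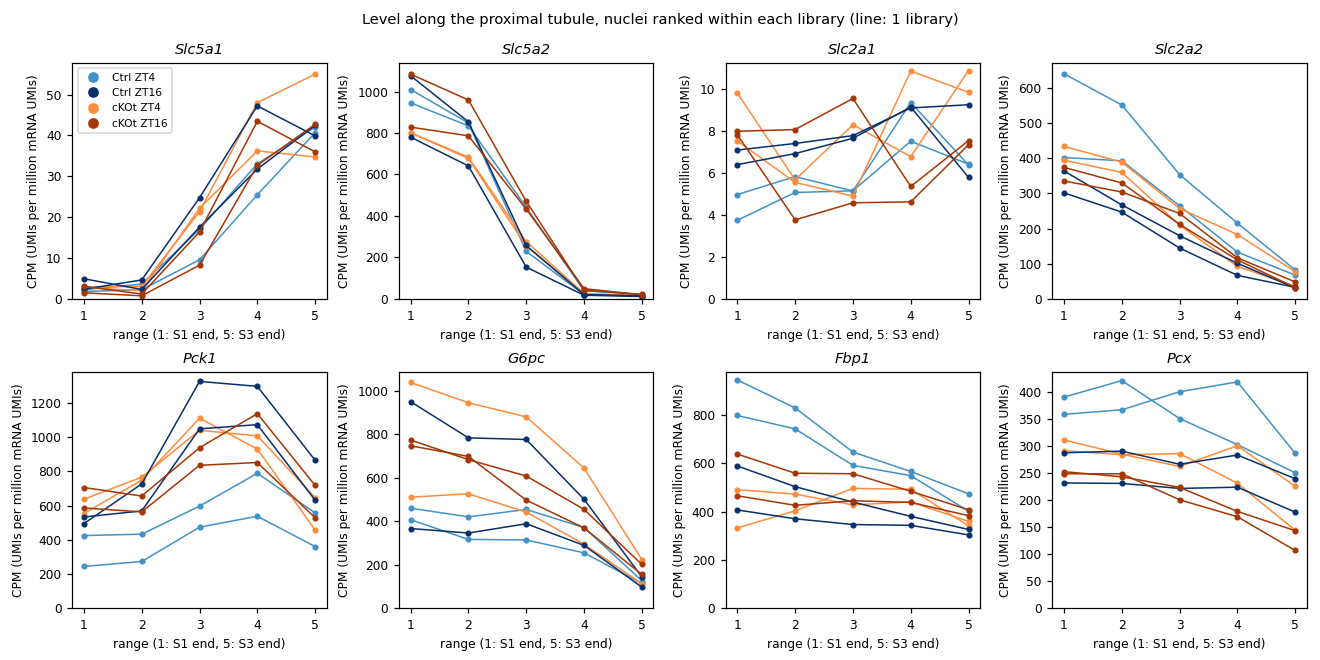
Level of each gene in CPM (vertical axis, linear from 0) over the 5 ranges from the S1 end (1) to the S3 end (5) of the proximal tubule, with 1 line per library coloured by group. Slc5a2 and Slc2a2 fall and Slc5a1 rises in every library, Pck1 peaks in ranges 3 and 4, and the 2 Ctrl ZT4 lines lie lowest for Pck1 in ranges 1 to 4 and highest for Fbp1 in ranges 1 to 4 and for Pcx in every range.

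Genotype and time of day were then compared in the proximal tubule. For Pck1, Fbp1, Pcx and Slc2a2 the Ctrl libraries at ZT4 lay below (Pck1) or above (the other 3) all other 6 libraries in PCT, as did those of 9.72% of all mRNAs, and by edgeR none of the 8 genes passed the threshold after adjustment over all mRNAs. In PCT and PST together this held for Pck1, Fbp1 and Pcx but not for Slc2a2 (10.7% of all mRNAs), and in all nuclei Pck1 and Slc2a1 lay below and Fbp1 and Pcx above (11.6%). Pck1 in PCT stood at 489 and 418 CPM in Ctrl at ZT4, at 873 and 672 in Ctrl at ZT16, at 869 and 853 in cKOt at ZT4 and at 801 and 703 in cKOt at ZT16. Both Ctrl ZT4 libraries thus lay below all other 6. The Ctrl libraries at ZT16 overlapped with both cKOt groups, and the cKOt libraries at ZT16 lay below those at ZT4. In PCT and PST together the values were 580 and 397, 802 and 1000.1, 830 and 763, and 857 and 681, in the same order of groups. In PST alone the libraries of a group lay far apart (669 and 308 in Ctrl at ZT4, 532 and 1156 in Ctrl at ZT16), and no pair of groups was separated. Within the axis, both Ctrl ZT4 libraries lay below all others in ranges 1 to 4, for example at 597 and 473 against between 836 and 1327 in range 3.

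Relative to ZT4, the log2 fold change of Pck1 at ZT16 in Ctrl was 0.76 ± 0.17 (SE) in PCT (edgeR quasi-likelihood test, adjusted p = 0.243) and 0.89 ± 0.22 in PCT and PST together (adjusted p = 0.208, edgeR). For cKOt against Ctrl at ZT4 it was 0.92 ± 0.18 in PCT, 1.89-fold, with a 95% interval of the log2 fold change from 0.52 to 1.32 (adjusted p = 0.118, edgeR), and 0.72 ± 0.22 in both together (adjusted p = 0.324). These comparisons share the Ctrl ZT4 libraries and are not independent of each other. DESeq2 called Pck1 in PCT in both (log2 fold change 0.76, adjusted p = 0.0316, and 0.92, adjusted p = 0.00215). The genotype-by-time interaction of Pck1, the test of whether the difference between time points differs between genotypes, was −0.92 ± 0.25 in PCT (adjusted p = 1.00, edgeR).

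Fbp1 and Pcx had the opposite pattern. Fbp1 in PCT stood at 801 and 645 in Ctrl at ZT4, against 459 and 381 in Ctrl at ZT16, 416 and 454 in cKOt at ZT4 and 443 and 571 in cKOt at ZT16, so that both Ctrl ZT4 libraries lay above the other 6. The log2 fold change was −0.78 ± 0.20 for Ctrl ZT16 against ZT4 (adjusted p = 0.296, edgeR) and −0.74 ± 0.20 for cKOt against Ctrl at ZT4 (adjusted p = 0.338), with an interaction of 1.05 ± 0.28 (adjusted p = 1.00). In PCT and PST together Fbp1 stood at 661 and 589 in Ctrl at ZT4 and at 430 and 346 at ZT16. In cKOt it stood there at 417 and 434 at ZT4 and at 428 and 516 at ZT16. Pcx in PCT stood at 383 and 398 in Ctrl at ZT4, at 285 and 233 in Ctrl at ZT16, at 284 and 288 in cKOt at ZT4 and at 228 and 232 in cKOt at ZT16. Again both Ctrl ZT4 libraries were the highest, with a log2 fold change of −0.60 ± 0.15 between time points in Ctrl (adjusted p = 0.287) and of −0.46 ± 0.15 between genotypes at ZT4 (adjusted p = 0.498). In PCT and PST together Pcx stood at 331 and 365 in Ctrl at ZT4 and at 270 and 213 at ZT16. In cKOt it stood there at 241 and 274 at ZT4 and at 183 and 200 at ZT16. In PST the cKOt libraries at ZT16 had the lowest Pcx (132 and 158, against 213 and 204 in Ctrl, log2 fold change −0.49 ± 0.19, adjusted p = 0.893).

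G6pc, the last enzyme of the path, stood in PCT at 345 and 422 in Ctrl at ZT4, at 716 and 354 in Ctrl at ZT16, at 492 and 842 in cKOt at ZT4 and at 613 and 663 in cKOt at ZT16. The cKOt libraries lay above the Ctrl libraries at ZT4, where 31.9% of all mRNAs did not overlap (log2 fold change 0.78 ± 0.33, adjusted p = 0.786, edgeR), while the Ctrl libraries at ZT16 lay far apart, one near the Ctrl libraries at ZT4 and the other among the cKOt libraries. In PCT and PST together G6pc stood at 264 and 350 in Ctrl and at 358 and 717 in cKOt at ZT4 (adjusted p = 0.631, edgeR). At ZT16 it stood there at 582 and 279 in Ctrl and at 445 and 507 in cKOt.

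Of the transporters, Slc2a2 in PCT stood at 344 and 394 in Ctrl at ZT4 and at 202 and 260 in Ctrl at ZT16 without overlap (log2 fold change −0.67 ± 0.19, adjusted p = 0.373, edgeR), beside 36.6% of all mRNAs without overlap in this contrast in PCT. In PCT and PST together it stood at 226 and 327 and at 165 and 133 (−0.91 ± 0.21, adjusted p = 0.167). In cKOt it stood at 307 and 299 in PCT at ZT4 and at 290 and 278 at ZT16, and in PCT and PST together at 199 and 254 and at 183 and 188, where the cKOt libraries at ZT4 overlapped with those of Ctrl. Slc5a2 in the proximal tubule as a whole lay at 382 and 337 in Ctrl at ZT4, 356 and 240 in Ctrl at ZT16, 315 and 319 in cKOt at ZT4 and 413 and 355 in cKOt at ZT16, and no pair of groups passed the threshold. Its genotype difference at ZT16 was a log2 fold change of 0.41 ± 0.17 (adjusted p = 0.602, edgeR), between groups whose libraries overlapped. Slc5a1 in the same nuclei lay between 18.7 and 28.4 and Slc2a1 between 5.67 and 8.35 over all 8 libraries.

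**Figure D3:**
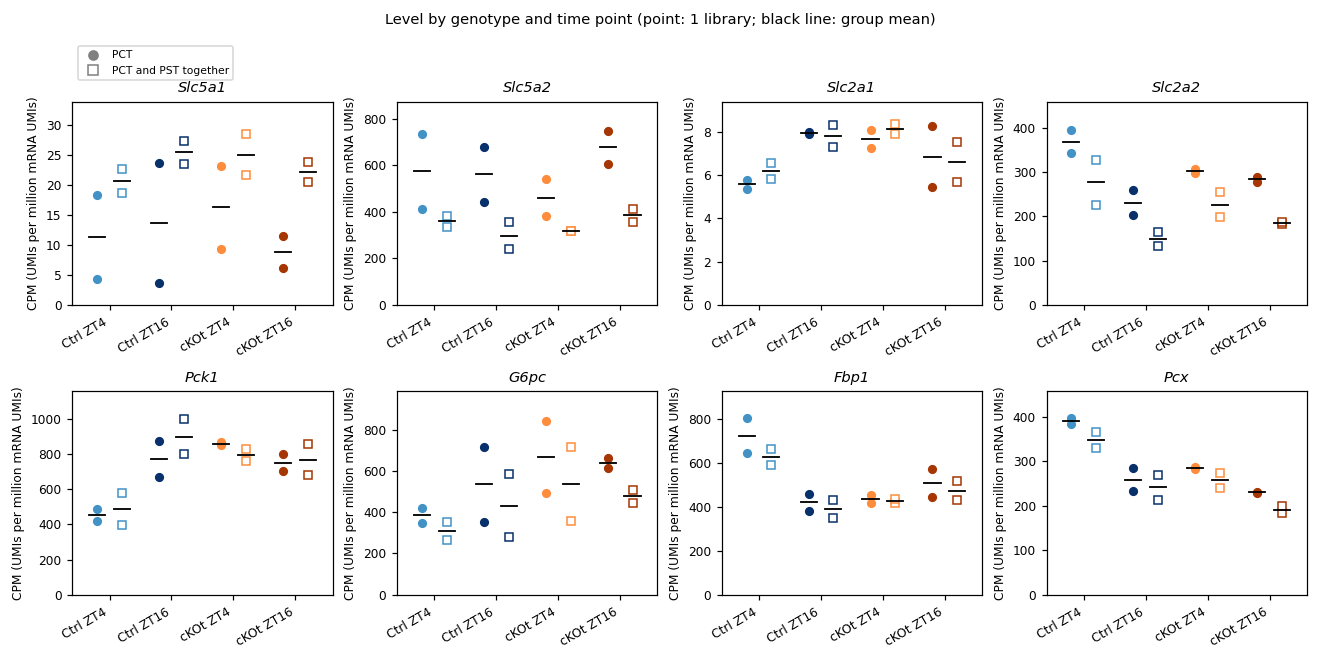
Level of each gene in CPM (vertical axis, linear from 0) by group, with 1 filled circle per library for PCT, 1 open square per library for PCT and PST together, and a black line at each group mean of 2 libraries. The 2 Ctrl ZT4 libraries of PCT lie below the other 6 for Pck1 (489 and 418) and above them for Fbp1 (801 and 645), Pcx (383 and 398) and Slc2a2 (344 and 394).

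By the adjusted edgeR test, 0 of the 8 genes were called in any of the 5 contrasts in PCT, in PST or in both together. In PCT, edgeR called 0.136% of the mRNAs tested between time points in Ctrl, 0.301% between genotypes at ZT4, 0.0756% between genotypes at ZT16, 0% between time points in cKOt and 0.0145% for the interaction. At an unadjusted p under 0.05 the counts of the 8 genes were 4, 4, 0, 0 and 2, beside 8.39%, 6.15%, 4.74%, 6.25% and 3.27% of all mRNAs. DESeq2 called 1, 1, 0, 0 and 0, the 1 being Pck1, against 1.06% and 1.18% of all mRNAs in the first and the second contrast. In PST the shares of all mRNAs were 0%, 0.0871%, 0.0151%, 0% and 0%, 1 of the 8 genes (Pcx, cKOt against Ctrl at ZT16) had an unadjusted p under 0.05, as had 5.35% of all mRNAs in that contrast, and DESeq2 called none. In PCT and PST together edgeR called 0.335%, 0.793%, 0.426%, 0% and 0.0205% of all mRNAs, and 4, 3, 1, 1 and 3 of the 8 genes had an unadjusted p under 0.05, beside 10.5%, 8.42%, 7.95%, 7.16% and 4.07% of all mRNAs. With under 1% of all mRNAs called by edgeR in each of these fits, a count of 0 in 8 does not set these genes apart from the rest.

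The libraries of a pair of groups failed to overlap more often than they were called, in these genes as in all genes. In PCT and PST together, 6 of the 8 genes had non-overlapping libraries between Ctrl ZT16 and ZT4, with Slc5a1, Slc2a1 and Pck1 higher and Slc2a2, Fbp1 and Pcx lower at ZT16, where 41.5% of all mRNAs did not overlap. Between genotypes at ZT4 it was 6 (Slc2a1, Pck1 and G6pc higher and Slc5a2, Fbp1 and Pcx lower in cKOt) beside 34.7% of all mRNAs. Between genotypes at ZT16 it was 2 (Slc2a2 higher and Pcx lower in cKOt) beside 36.2%. Between time points in cKOt it was 4 (Slc5a2 higher and Slc2a1, Slc2a2 and Pcx lower at ZT16) beside 33.3%.

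Sums over all nuclei mix the levels in each class with the number of its nuclei, and in them fewer cells of a type and less RNA per cell cannot be told apart. The proximal tubule held between 27.1% and 38.1% of the nuclei and between 40.1% and 51.7% of the mRNA UMIs of a library. Pck1 again lay lowest in Ctrl at ZT4 (319 and 230 CPM, against 450 and 517 in Ctrl at ZT16, 480 and 468 in cKOt at ZT4 and 518 and 374 in cKOt at ZT16). Its log2 fold change was 0.82 ± 0.19 both between time points in Ctrl (adjusted p = 0.217, edgeR) and between genotypes at ZT4 (adjusted p = 0.157). Slc2a2 did not overlap between time points in Ctrl, at 121 and 162 at ZT4 and 86.0 and 64.8 at ZT16 (−0.92 ± 0.18, adjusted p = 0.131), nor did Fbp1, at 350 and 310 and at 236 and 177 (−0.69 ± 0.14, adjusted p = 0.131), beside 41.5% of all mRNAs without overlap in this contrast in all nuclei. Slc2a1, most of whose UMIs lie outside the proximal tubule, stood at 20.7 and 21.3 and at 38.0 and 29.8 (0.68 ± 0.16, adjusted p = 0.220).

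In these sums 0 of the 8 genes were called by edgeR, beside 0.142% of all mRNAs between time points in Ctrl, 0.446% between genotypes at ZT4, 0.174% between genotypes at ZT16, 0% between time points in cKOt and 0.0183% for the interaction. At an unadjusted p under 0.05 the counts were 6, 3, 4, 1 and 3, beside 9.95%, 8.87%, 6.1%, 8.32% and 4.35% of all mRNAs. DESeq2 called 4 between time points in Ctrl (Pck1, adjusted p = 0.00655, and Slc2a1, 0.0297, higher at ZT16, and Slc2a2, 0.000773, and Fbp1, 0.00358, lower) beside 1.44% of all mRNAs, and 1 between genotypes at ZT4 (Pck1, higher in cKOt, 0.00470) beside 2.16%. It called 0 in the other 3 contrasts.

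**Figure D4:**
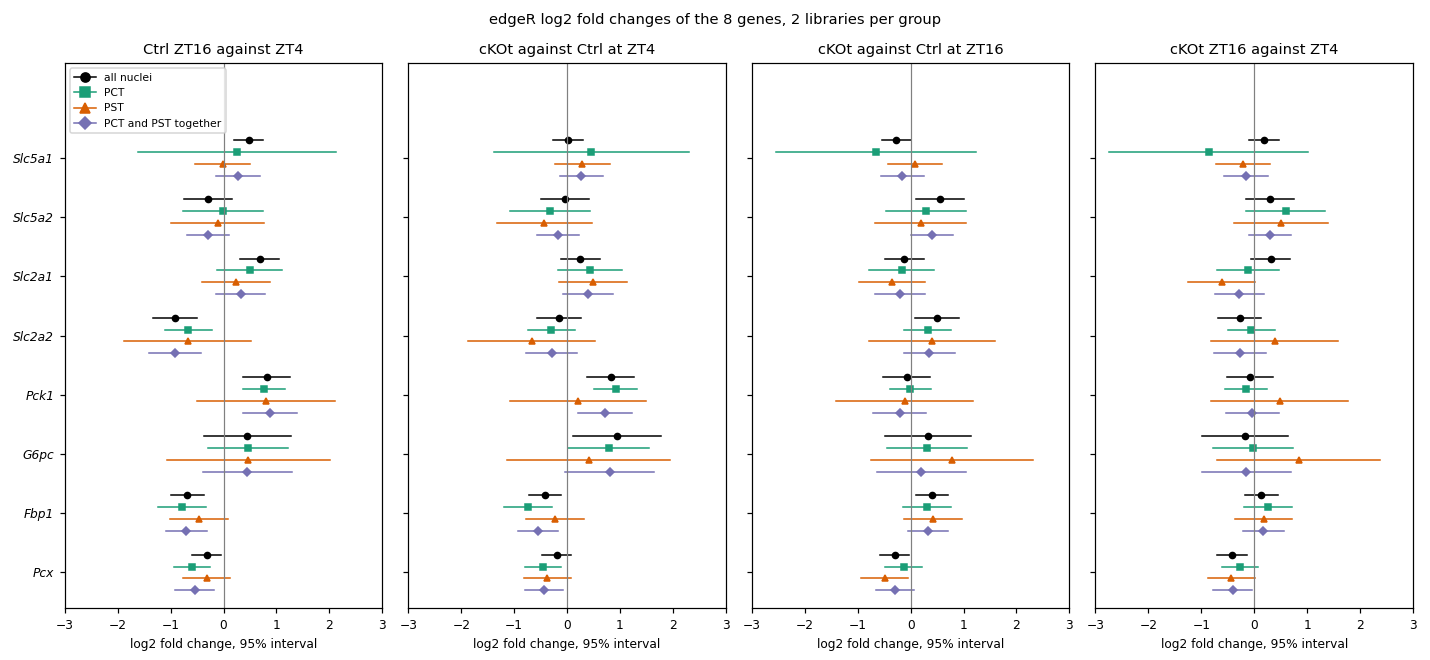
edgeR log2 fold changes of the 8 genes (horizontal axis) in the 4 pairwise contrasts, with 1 point and its 95% interval for all nuclei, PCT, PST, and PCT and PST together, and a grey line at 0. The intervals of Pck1 lie above 0 between time points in Ctrl and between genotypes at ZT4 except in PST, those of Fbp1 lie below 0 in the same contrasts except in PST, and after adjustment over all mRNAs none of the points passes the threshold.

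Outside the proximal tubule the transporters were compared at their own sites. Slc5a1 in MD stood at 365 and 331 CPM in Ctrl at ZT4, at 590 and 515 in Ctrl at ZT16, at 265 and 299 in cKOt at ZT4 and at 404 and 471 in cKOt at ZT16, so that in both genotypes the ZT16 libraries lay above the ZT4 libraries and at both times the Ctrl libraries lay above the cKOt libraries. In MD 36.6% of all mRNAs tested did not overlap between time points in Ctrl, 36.8% between time points in cKOt, 34.4% between genotypes at ZT4 and 35.9% at ZT16. MD had 10 to 33 nuclei per library, and the difference did not pass the test (Ctrl ZT16 against ZT4, adjusted p = 0.886, edgeR). In TAL, Slc5a1 stood at 149 and 109, 153 and 160, 129 and 82.5, and 135 and 128 in the same order of groups. There the Ctrl libraries at ZT16 lay above both the Ctrl libraries at ZT4 and the cKOt libraries at ZT16, contrasts in which 41.6% and 32.8% of all mRNAs did not overlap, and the genotypes overlapped at ZT4 (Ctrl ZT16 against ZT4, adjusted p = 0.562). Slc2a1 in TAL stood at 50.2 and 55.2 in Ctrl at ZT4 and at 110 and 68.1 in Ctrl at ZT16 (log2 fold change 0.76 ± 0.19, adjusted p = 0.0682, and 0.0420 by DESeq2, which called 1.32% of all mRNAs there), and in cKOt at 67.5 and 69.2 and at 94.2 and 72.6. In CCD it stood at 93.1 and 79.8 in Ctrl at ZT4 and at 140 and 139 at ZT16 (adjusted p = 0.416, edgeR). In thinDL, the class with its highest mean, the same groups overlapped at 196 and 108 and at 128 and 167 (adjusted p = 0.998). They also overlapped in aIC (adjusted p = 0.983). Between genotypes at ZT4 the log2 fold change of Slc2a1 was 0.77 ± 0.32 in aIC (adjusted p = 0.612) and 0.95 ± 0.42 in bIC (adjusted p = 0.807, edgeR). It was above 0 in 8 and below 0 in 5 of the 13 classes tested. Pcx in MCD ranged widely within Ctrl at ZT16 (273 and 831) and stood at 694 and 620 in Ctrl at ZT4, at 488 and 578 in cKOt at ZT4 and at 393 and 464 in cKOt at ZT16.

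Over the 17 classes outside the proximal tubule, 452 tests of the 8 genes were possible in the 4 pairwise contrasts, of which 75 had an unadjusted p under 0.05, beside 6.44% of all mRNAs in the same fits, and 4 were called. All 4 were of Pck1 between time points in Ctrl, higher at ZT16. Of the 75, Pck1 gave 14 in that contrast and 8 between genotypes at ZT4, and G6pc gave 6 and 9. Outside MD both genes lay within the marker range given above for free RNA. The 17 classes share their libraries, so these tests are not independent, and no excess is read from the 75. Pck1 in TAL stood at 66.8 and 89.9 CPM in Ctrl at ZT4 and at 145 and 169 in Ctrl at ZT16, a rise of 2.00-fold (log2 fold change 1.00 ± 0.16, adjusted p = 0.00506, edgeR), where 1.27% of all mRNAs were called. In cKOt it stood at 119 and 133 at ZT4 and at 117 and 101 at ZT16. Without Ctrl ZT4 replicate 1 the log2 fold change in TAL was 0.82 and no longer passed (adjusted p = 0.0813).

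The other 3 calls were those of the late distal convoluted tubule (DCT2), CNT and Vasc. In DCT2, Pck1 stood at 40.2 and 72.3 in Ctrl at ZT4 and at 122 and 121 at ZT16 (1.18 ± 0.25, adjusted p = 0.0204, beside 0.709% of all mRNAs). In CNT it stood at 70.1 and 88.8 and at 170 and 162 (1.09 ± 0.23, adjusted p = 0.0256, beside 0.477%). In Vasc it stood at 97.8 and 110 and at 172 and 201 (0.84 ± 0.15, adjusted p = 0.0253, beside 0.6%). Neither DCT2 (adjusted p = 0.0828) nor CNT (adjusted p = 0.187) passed with DESeq2. By edgeR all 3 calls were lost without Ctrl ZT4 replicate 1 (adjusted p = 0.369, 0.290 and 0.258 in DCT2, CNT and Vasc), without Ctrl ZT16 replicate 1 (0.120, 0.213 and 0.0593) and without Ctrl ZT16 replicate 2 (0.113, 0.139 and 0.223), and those of CNT (0.0925) and Vasc (0.117) also without Ctrl ZT4 replicate 2. The count of 4 fell to 0 without Ctrl ZT4 replicate 1 and to 2 without Ctrl ZT4 replicate 2 or Ctrl ZT16 replicate 1, and rose to 7 without cKOt ZT4 replicate 1. The log2 fold change of Pck1 was above 0 in 17 of 17 classes in this contrast (0.51 to 1.21, median 0.86) and in the genotype contrast at ZT4 (median 0.72), and these classes share their libraries.

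Pck1 in these 4 classes lay within the marker range given above for free RNA, so the 10 PCT markers were read in the same classes and contrast. None of the 10 markers was at 0 in them. In TAL, 0 markers were called up and 1 down, with a median log2 fold change of 0.02 (−0.91 to 0.80), and their summed level was 671 to 737 CPM in Ctrl at ZT4 and 602 to 687 at ZT16. In DCT2 none was called, with a median of 0.38 (−0.37 to 1.32) and sums of 571 to 760 and 574 to 884. In CNT none was called, with a median of −0.02 (−0.99 to 0.64) and sums of 752 to 888 and 771 to 823. In Vasc 1 was called down, with a median of −0.04 (−1.15 to 0.61) and sums of 970 to 1093 and 899 to 920. Relative to PCT of its own library, Pck1 stood at 13.7% to 25.1% in TAL, 6.99% to 18.1% in DCT2, 13.5% to 24.1% in CNT and 18.4% to 29.9% in Vasc, where the summed markers stood at 4.09% to 5.95%, 3.48% to 7.66%, 4.58% to 7.48% and 5.91% to 8.79%. The Pck1 shares of the Ctrl libraries at ZT4 and at ZT16 overlapped in each of the 4 classes, at 13.7% and 21.5% and at 16.6% and 25.1% in TAL, and Pck1 also stood higher at ZT16 in PCT of Ctrl. The markers need not rise with Pck1 in PCT. Free RNA from PST, where Pck1 stood at 94.4% of its PCT level and the median marker at 19.2%, is left out of these shares. The part of free RNA in these calls was not tested beyond these values.

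**Figure D5:**
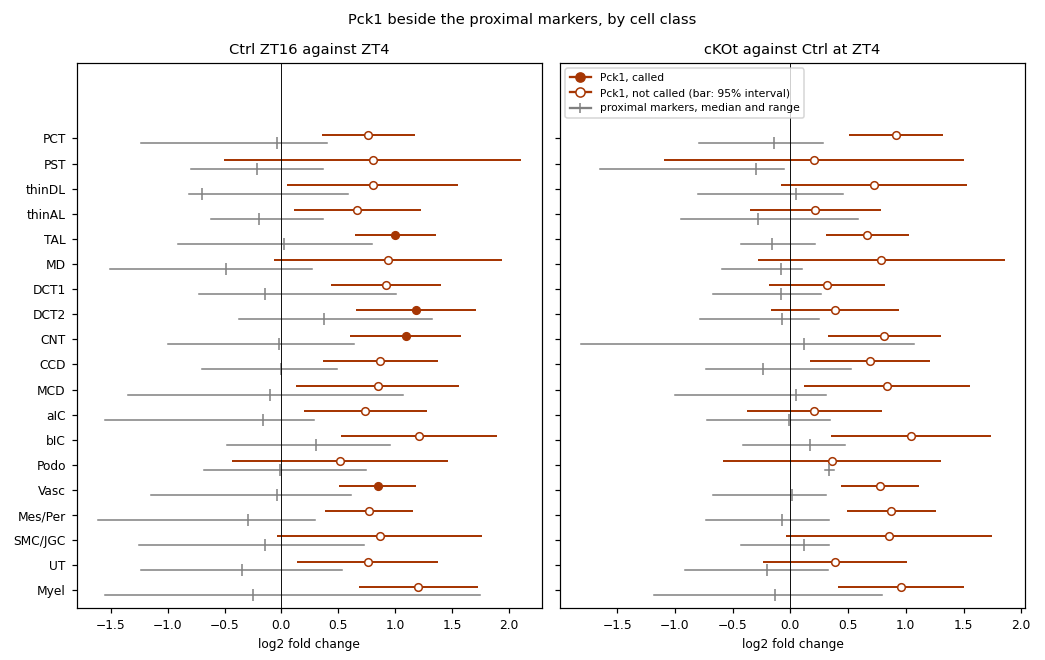
Log2 fold changes (horizontal axis) by class, for Ctrl ZT16 against ZT4 (left) and cKOt against Ctrl at ZT4 (right), of Pck1 (circle with 95% interval, filled where called) and of the 10 PCT markers (grey tick at the median, grey line from the lowest to the highest). Pck1 lies above 0 in every class in both panels and is called in TAL, DCT2, CNT and Vasc on the left, while the marker medians of these 4 classes lie between −0.04 and 0.38.

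The interaction of genotype and time was tested for the 8 genes over all classes, all nuclei and both proximal sums. Of 149 tests, 30 had an unadjusted p under 0.05, as had 4.07% of all mRNAs in PCT and PST together. None was called by edgeR, and the smallest adjusted p was 0.127, for Pck1 in TAL (−1.20 ± 0.23). The difference of Pck1 between time points in Ctrl was therefore not shown to differ from that in cKOt, which was below 0 in 11 of the 17 classes (median −0.13) and called in none. The interaction of Pck1 was below 0 in 17 of these 17 classes (median −1.02), with an unadjusted p under 0.05 in 12 and none called. The 149 tests share their libraries and are not independent.

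The other genes of sugar transport and metabolism formed 8 lists with 78 members: 5 sodium-coupled and 9 facilitative sugar transporters, 1 partner of the SGLTs, 13 gluconeogenic enzymes and carriers, 15 genes of substrate entry, 7 enzymes shared with glycolysis, 14 of glycolysis alone and 14 regulators. Of these, between 70 and 78 could be tested in all nuclei, PCT and PST. By edgeR 1 of them was called, Slc16a1 (MCT1), a carrier of lactate and other monocarboxylates. In PCT, Slc16a1 stood at 10.6 and 10.8 CPM in Ctrl at ZT4, at 37.1 and 77.7 in cKOt at ZT4, at 35.2 and 33.1 in Ctrl at ZT16 and at 47.9 and 52.0 in cKOt at ZT16. Both Ctrl ZT4 libraries lay below all other 6. Slc16a1 was 5.31-fold higher in cKOt than in Ctrl at ZT4 (log2 fold change 2.41 ± 0.31, adjusted p = 0.0199) and 5.22-fold higher in all nuclei (2.39 ± 0.37, adjusted p = 0.0395), contrasts in which 0.301% and 0.446% of all mRNAs were called. The PCT call was lost without either Ctrl ZT4 library (adjusted p = 0.162 and 0.183) and without either cKOt ZT16 library (0.0603 and 0.0602). Without cKOt ZT4 replicate 2 the log2 fold change in PCT was 1.79 (adjusted p = 0.0180). The call in all nuclei was lost without those 4 libraries too (adjusted p from 0.0687 to 0.216) and without cKOt ZT4 replicate 2, where the log2 fold change was 1.69 (adjusted p = 0.0529, edgeR). With the replicate number as a block it was 2.36 in all nuclei (adjusted p = 0.0757). Its mean level over the 8 libraries was 38.0 in PCT and between 0.899 and 10.3 in the other classes. The difference between time points in Ctrl did not pass (1.67 ± 0.31 in PCT, adjusted p = 0.140), nor did the interaction (−1.83 ± 0.43, adjusted p = 1.00, edgeR).

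Over all lists the median log2 fold change in PCT was 0.03 between time points in Ctrl and −0.02 between genotypes at ZT4, beside 0.01 and −0.000692 over all mRNAs. At an unadjusted p under 0.05, 4 members were higher and 5 lower in PCT in the first contrast (71 tested, beside 8.39% of all mRNAs) and 5 higher and 3 lower in the second (73 tested, beside 6.15%). Of the 15 genes of substrate entry, 4 were higher and 1 lower in the first (median 0.37) and 3 higher and 0 lower in the second (median 0.26). Of the facilitative transporters, 0 were higher and 2 lower in the first (6 tested, median −0.51). In the 5 sodium-coupled sugar transporters other than the pair described, edgeR called 0 and DESeq2 called Slc5a9. In all nuclei 3 were higher and 5 lower of 78 between time points in Ctrl, and 8 higher and 6 lower of 76 between genotypes at ZT4, beside 9.95% and 8.87% of all mRNAs. In PST 0 of the 78 were called in any contrast by edgeR. Among the members that DESeq2 called, with the direction in its own fit, were Slc16a1 higher and Slc2a9, a urate and sugar carrier, lower at ZT16 in Ctrl in all nuclei and PCT, Slc5a9 higher in cKOt at ZT16 in all nuclei, Pfkfb3, which makes a glycolytic activator, lower in cKOt at ZT16 in PST, and the interaction of Slc16a1. Of all mRNAs DESeq2 called 1.06% in all nuclei between genotypes at ZT16, 0.59% in PST in the same contrast, and 0.294% and 0.181% for the interaction in all nuclei and PCT.

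The genes most like each member in their levels over the 19 classes, of 8156 mRNAs compared by Pearson's r of the log2 mean level, are named here for their likeness alone. The classes share libraries, and r is a description. For Slc5a2 they were Slc6a19 (0.97) and Slc5a12 (0.97), both on the PCT marker list, and Prodh2 (0.95). For Slc2a2 they were Slc7a9 (0.97), Cpn1 (0.96) and Acmsd (0.96), and for G6pc Slc34a1, a PCT marker (0.98), Slc13a1 (0.98) and Agxt2 (0.97). Pck1 and Fbp1 were each among the 3 genes most like the other (0.99), beside Akr1c21 (0.99 for both), Amn for Pck1 (0.99) and Acsm2 for Fbp1 (0.98). For the genes with sites outside the proximal tubule the likeness was lower: Cntn5 (0.89), Enox1 (0.82), which is on the MD marker list, and Car4 (0.82) for Slc5a1, Ckmt1 (0.83), Hk1 (0.83), which starts glycolysis, and Lurap1 (0.81) for Slc2a1, and Slc25a48 (0.89), Pfdn2 (0.88) and Rangap1 (0.88) for Pcx.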

How the data were processed

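Kidney nuclei of 8 mice were measured by droplet single-nucleus RNA-seq of RNA 3′ ends. The authors demultiplexed with bcl2fastq 2.20, counted with Cell Ranger 7.1.0 and deposited, per library, unnormalized UMI counts per gene and called barcode. An mm10 reference is named in the methods and GRCm39 in the processing notes, and no coordinates entered the counts used here. Whole-kidney data of the study were not analysed here.

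Nuclei needed 500 genes, 800 UMIs and no more than 2% mitochondrial UMIs. Scrublet in scanpy 1.11.5 (expected rate 8%) scored from 4.75% to 5.90% of a library as doublets, and these were kept. Seurat 5.3.0 was run on 2000 variable mRNAs (1000 principal components, 20 neighbours, resolution 2.2) without 19 genes of glucose handling. A class name required a mean marker z of 0.9 or more, 3 markers that were 2-fold enriched and present in 10% of the cluster, 20 nuclei, a doublet share under 50% and 10 leading genes that did not favour the markers of a different class. The names were rebuilt here and are not those of the authors.

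UMI sums of mRNAs, per library and per class, were tested by the edgeR 4.0.16 quasi-likelihood method with TMM factors. The same fit covered all 4 groups. A gene entered a contrast with 5 counts in both mice of either group, and p-values were adjusted (Benjamini-Hochberg) over every mRNA in the contrast, with significance at 0.05. DESeq2 1.42.0 served as the alternative, and DESeq2 is the tool that the paper used for its sums of nuclei. The fit was tested on simulated data. Replicates differed by more than sampling noise (chi-square over its degrees of freedom from 36.6 to 64.6), and each is 1 mouse by the methods. Shares of nuclei cover counting error only.

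The 8 genes are named in each comparison, with the targeted gene, the pathway genes called (at most the 3 with the smallest p per contrast, scope and direction), and for each of the 8 the 3 mRNAs most alike over the classes (at least 50 CPM in 1 class). Log2 fold changes are printed where the unadjusted p was under 0.05. The genes, lists and markers were chosen with earlier results of these data known. One pathway gene called by DESeq2 is counted but not reported by name here.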

Additional observations from a re-analysis of the deposited data

How the results depend on the processing

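Of 120 fold changes of the 8 genes tested in all nuclei, PCT and PST, 28 had an unadjusted p under 0.05 and 0 of these changed sign under any alternative, while 46 of all 120 changed sign under at least 1. Calls depended on the tool and the filter, and the cause was not tested. DESeq2 called 4 of the 8 in all nuclei between time points in Ctrl, and 1 in each of the other 3 comparisons it called (all nuclei between genotypes at ZT4, and PCT in both contrasts). Without a filter on low counts edgeR called 1, Pck1 in PCT between genotypes at ZT4 (log2 fold change 0.93, adjusted p = 0.0314, with 0.00215 to 0.546 over all its alternatives). Over all mRNAs DESeq2 called 233 and 349 in all nuclei in these contrasts, against 23 and 72 by edgeR, and 141 and 161 in PCT, against 18 and 41. The alternatives for the other classes and for the pathway genes were chosen after seeing the data. The 4 calls in the other classes became 7 with a replicate block, 6 by DESeq2 and 0 to 7 leaving out 1 library at a time. The 2 pathway calls became 16 by DESeq2, 9 without a filter, 5 with 50 principal components, 4 with PCT and PST together, 1 with the replicate block (Slc16a1 in PCT, while all nuclei no longer passed) and 0 to 3 leaving out 1 library. The replicate numbers were not used as pairs in the main fit. The correlations of deviations between genotypes at the same time point were the highest, at 0.446 (ZT4) and 0.454 (ZT16). Between time points they were −0.228 in Ctrl and 0.214 in cKOt. They were −0.00466 for Ctrl ZT4 with cKOt ZT16 and −0.270 for Ctrl ZT16 with cKOt ZT4. With the block edgeR called 15, 53, 30, 2 and 0 mRNAs in all nuclei in the 5 contrasts, against 23, 72, 28, 0 and 3. The block was a single term for the replicate number, shared by all groups, so it does not represent pairs within a time point. With 50 principal components Slc5a1 stood at 14.3 CPM in thinDL, 169.9 in TAL, 2.14 in DCT1, 3.10 in DCT2, 4.15 in Mes/Per (3.69 with doublets left out) and 5.68 in Myel, Slc5a2 at 43.4 in aIC and 36.6 in Podo, Slc2a2 at 26.9 in PST, Pck1 at 82.8 in Podo, G6pc at 69.4 in PST and 63.03 in bIC, Fbp1 at 82.5 in bIC and 42.5 in Podo, and Pcx at 64.4 in bIC. By the thinned share of nuclei, PCT ranked 2 for Pck1. In classes with few nuclei, depth limits the levels of the genes near 1 CPM.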

Other observations

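A cluster of 1943 nuclei scored highest on the markers of the thin ascending limb (mean z 1.65, against 1.42 for the thin descending limb) but stayed unnamed, because its 10 leading genes held 1 marker of the thin descending limb and 0 of the thin ascending limb. It held Pcx at 317 ± 87.5 CPM (SD over 8 libraries), with libraries from 195 to 437, which overlapped with PCT, UT and MCD, and Slc2a1 at 46.4 ± 26.1. Pck1 (135 ± 35.2), Fbp1 (57.5 ± 19.4), G6pc (44.0 ± 16.0), Slc2a2 (20.0 ± 6.22) and Slc5a2 (32.2 ± 11.2) lay there within the range of the other classes outside the proximal tubule.

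In these 17 classes the log2 fold change of G6pc between genotypes at ZT4 was above 0 in 16 of the 16 in which it was tested (median 0.87), with an unadjusted p under 0.05 in 9 (5.88% of all mRNAs over these classes) and none called by edgeR, while DESeq2 called TAL alone (adjusted p = 0.0155, beside 0.657% of all mRNAs). In TAL, G6pc stood at 22.3 and 29.4 CPM in Ctrl and at 45.8 and 61.5 in cKOt at ZT4 (1.03 ± 0.22, adjusted p = 0.0592, edgeR), within the range of the PCT markers there. Between genotypes at ZT4 DESeq2 also called Pck1, higher in cKOt, in Vasc (log2 fold change 0.78, adjusted p = 0.0169, beside 0.133% of all mRNAs). It did so in Mes/Per too (0.88, adjusted p = 0.0330, DESeq2, beside 0.299%). Pck1 was below 0 in 17 of 17 classes for cKOt against Ctrl at ZT16 (median −0.41), with 3 unadjusted p under 0.05 (5.03% of all mRNAs) and none called. The classes share their libraries, and the part of free RNA was not tested.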
